A study of Mus musculus with 40 samples.

Results

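Monocytes sorted from blood were compared between tumor-bearing and healthy mice, with 4 libraries in each group, which makes 8 of the 40 RNA sequencing libraries of the series. The libraries were chosen by the group label of each sample and not by any measured value. Tumor-bearing mice carried Cdx2CreERT2 and 2 floxed alleles of Apc and had received 1 intraperitoneal dose of Tamoxifen at 25 mg/kg, at 8 to 10 weeks of age by the labels. Cdx2CreERT2 is a Cre recombinase that is driven in the colon and becomes active once Tamoxifen is given, so the deletion is not aimed at the blood cells measured here. Healthy mice carried no transgene and received no agent, and their age is not given in the labels. Thus genotype, Tamoxifen and tumor move together and cannot be told apart. Strain moves with them as well. The labels give C57Bl6 for the healthy mice and C57Bl6/Sv131, C57Bl6/Sv134, C57Bl6/Sv149 and C57Bl6/Sv151 for replicates 1 to 4 of the tumor-bearing mice, where the number goes up by 1 with each sample through the series and is read here only as a mixed strain. The sample titles name 1 mouse for each tumor-bearing library and for healthy replicate 1, and 2 mice for each of healthy replicates 2, 3 and 4.

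Blood monocytes leave the bone marrow as classical cells, which in the mouse are high in the surface protein Ly6C and in the chemokine receptor Ccr2 and enter inflamed tissue. Some of them convert in the blood to non-classical cells, which lose Ly6C and patrol the vessel wall. Type I and type II interferons switch on a large set of antiviral genes in monocytes, while lactotransferrin, lipocalin and the other granule proteins belong to neutrophils and to their precursors in the marrow. S100a8 and S100a9 are abundant in neutrophils and also present in classical monocytes. The gate that the study gives for mouse monocytes is CD45+ EpCAM- CD11b+ MHCII- Ly6C-high Ly6G-, shown there on cells of tumors, and whether blood was gated the same way is not given in the sources used here.

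Counts on genes totaled 11737907 to 17914084 in the tumor-bearing libraries and 13994069 to 18826286 in the healthy ones, and mitochondrial genes took 17.9% to 31.8%. The highest mitochondrial share and the fewest genes with a count, 20705, were those of healthy replicate 2. Pearson correlations of log2 CPM (counts scaled to library size) across genes, which are not independent, were 0.874 to 0.968 between tumor-bearing libraries, 0.846 to 0.959 between healthy ones and 0.805 to 0.950 across the groups. Apc, which the Cre targets in the colon and which therefore does not check the labels here, was at 1.42 to 2.97 RPKM (reads scaled to gene length and library size) in tumor-bearing and 2.23 to 2.82 RPKM in healthy libraries (log2 fold change -0.07, SE 0.25). Markers of the labelled cell type were present in all 8 libraries. Csf1r, the receptor for the monocyte growth factor, was at 48.9 to 167.5 RPKM and Itgam, which encodes CD11b, at 55.3 to 72.3 RPKM in all 8 libraries, while the T cell gene Cd3e and the B cell gene Cd79a did not exceed 0.996 and 0.637 RPKM. Other genes of such lists were higher. B cell genes summed to 18.2 to 78.7 RPKM in tumor-bearing and 52.15 to 82.15 RPKM in healthy libraries, and NK cell genes to as much as 60.7 RPKM. Class II genes, whose protein the study's gate excludes, summed to 24.8 to 657.9 and 45.35 to 384.4 RPKM. Red cell RNA differed between libraries and not between groups. Hbb-bs, a hemoglobin chain, was at 106.8 to 222.8 RPKM in 5 libraries and at 1.64, 9.20 and 0.294 RPKM in tumor-bearing replicates 3 and 4 and healthy replicate 4. Xist, expressed from the inactive X chromosome of females, stood at 15.3 and 18.7 RPKM in tumor-bearing replicates 1 and 2 and at 0.0184 and 0.0272 RPKM in replicates 3 and 4, against 5.12, 9.81, 32.0 and 0.0131 RPKM in healthy replicates 1 to 4. Healthy replicate 1, for which the title names a single mouse, also held the Y-linked Ddx3y at 3.19 RPKM, close to the 3.68 RPKM of healthy replicate 4, and none of the 5 tested genes of the sex list passed the test (median log2 fold change -0.12, with the Y-linked Uty at 0.21).

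Of 15313 genes tested, 32 (0.209%) were called differentially expressed, for which the Benjamini-Hochberg adjusted p had to be under 0.05 and the log2 fold change beyond 1.5 in either direction. Monocytes of tumor-bearing mice were higher in 14 genes (0.0914%) and lower in 18 (0.118%). The 14 genes were led by neutrophil granule proteins and S100 proteins, and 8 of the 18 were on the lists of interferon-stimulated genes (Ifit2, Ifit3, Ifit3b, Usp18 and Mx1) or interferon-inducible GTPases (Tgtp1, Tgtp2 and Gbp9). Markers of non-classical monocytes were also among the lower genes. Without the fold threshold 33 genes (0.216%) passed, the added one being Slfn5 (log2 fold change -1.46, SE 0.19, adjusted p = 0.0226), and Slfn1 lay just past the threshold at -1.52. At an unadjusted p under 0.05 there were 671 higher and 836 lower genes, with 0.02 as the median log2 fold change of the whole set. The RPKM ranges of the groups did not overlap for any of the 32 genes. For such genes the exact permutation test, 2-sided over 70 arrangements, always gives its smallest possible p of 0.0286, so it adds nothing to the separation. Over all genes tested, ranges did not overlap in 2.3% with tumor-bearing higher and in 5.06% with tumor-bearing lower. The count of calls depended on single libraries. It was 4, all higher, without tumor-bearing replicate 3, without tumor-bearing replicate 4 or without healthy replicate 1, it was 10 and 15 without tumor-bearing replicates 1 and 2, and it was 22, 44 and 36 without healthy replicates 2, 3 and 4.

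**Figure D1:**
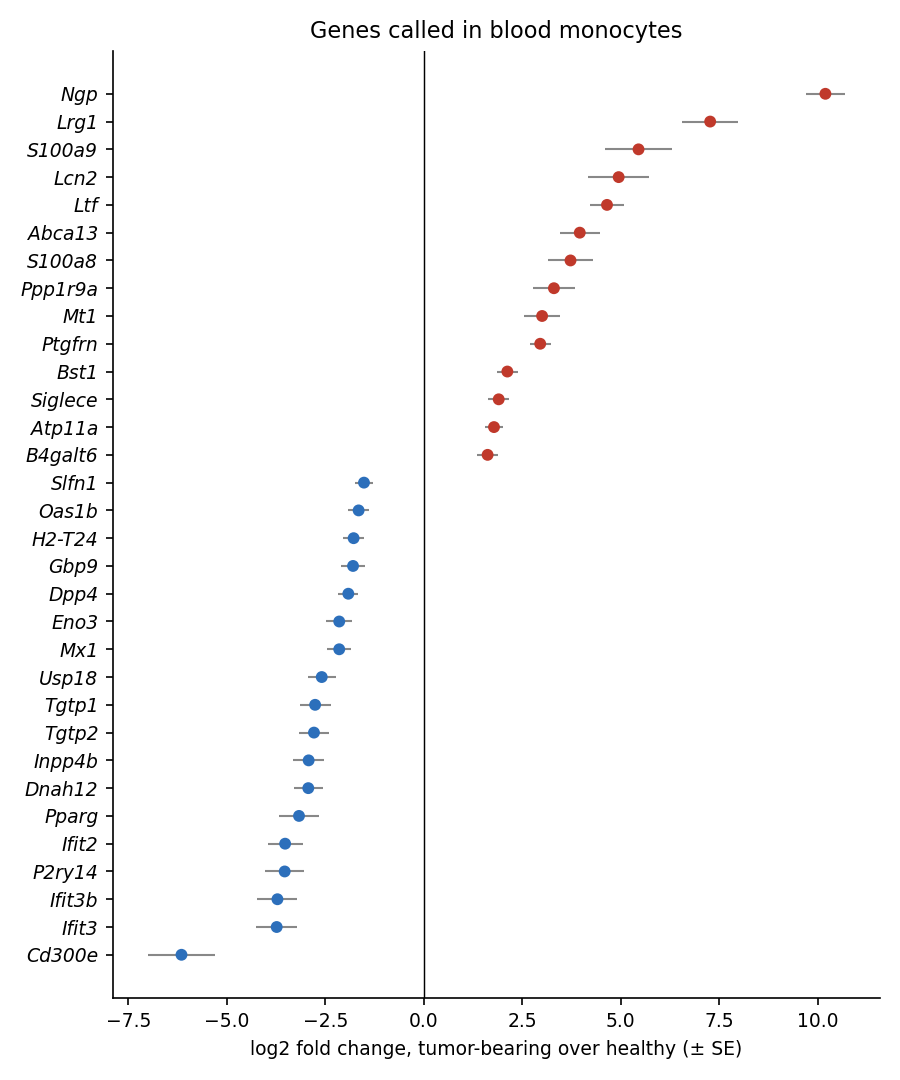
Log2 fold change of tumor-bearing over healthy mice for the 32 genes called in blood monocytes, with points for the edgeR estimate and bars for its SE, red for higher and blue for lower. The estimates run from -6.15 for Cd300e to 10.19 for Ngp, and the bars are shortest for Atp11a and Slfn1, at 0.23 each.

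The largest differences were in genes of neutrophil granules. Ngp, neutrophilic granule protein (ENSMUSG00000032484, chr9:110419747-110423012 of mm10, plus strand), was at 63.0, 22.6, 33.1 and 49.95 RPKM in tumor-bearing replicates 1 to 4 and at 0.0617, 0.0551, 0.02535 and 0.01945 RPKM in healthy replicates 1 to 4. Every tumor-bearing library was far above every healthy one, in which the gene had at most 5 counts, so the log2 fold change of 10.19 (SE 0.49, adjusted p = 1.728e-05) rests on very few healthy reads. Ltf, lactotransferrin, an iron-binding protein of secondary granules (ENSMUSG00000032496, chr9:111019271-111042767, plus strand), was at 4.95, 2.92, 2.64 and 5.90 RPKM against 0.133, 0.234, 0.240 and 0.0910 RPKM (log2 fold change 4.65, SE 0.44, adjusted p = 0.00396). Lcn2, lipocalin 2, which sequesters bacterial siderophores (ENSMUSG00000026822, chr2:32384633-32388252, minus strand), was at 12.9, 3.78, 27.9 and 25.1 RPKM against 0.631, 0.558, 0.129 and 1.08 RPKM (log2 fold change 4.94, SE 0.77, adjusted p = 0.0374). Tumor-bearing replicate 2 was the lowest of its group for Ngp and Lcn2 and still lay above the healthy libraries.

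S100a9 and S100a8 encode the 2 chains of calprotectin, which is abundant in neutrophils and also present in classical monocytes, and lie 23654 bases apart on chromosome 3. S100a9 (ENSMUSG00000056071, chr3:90692632-90695721, minus strand) was at 69.3, 7.97, 99.55 and 102.3 RPKM in tumor-bearing and 1.22, 0.385, 2.09 and 3.00 RPKM in healthy libraries (log2 fold change 5.45, SE 0.85, adjusted p = 0.0384). S100a8 (ENSMUSG00000056054, chr3:90668978-90670035, plus strand) was at 31.0, 49.4, 68.3 and 49.9 RPKM against 2.10, 9.37, 2.88 and 1.78 RPKM (log2 fold change 3.72, SE 0.58, adjusted p = 0.0374). The groups were apart for both genes, with the gap narrower for S100a9 because of tumor-bearing replicate 2.

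Lrg1, a secreted leucine-rich glycoprotein of myeloid cells and liver (ENSMUSG00000037095, chr17:56119678-56122001, minus strand), was at 8.62, 10.75, 5.11 and 2.09 RPKM in tumor-bearing and 0.0849, 0.0608, 0.0246 and 0.0125 RPKM in healthy libraries, where it had at most 8 counts (log2 fold change 7.27, SE 0.71, adjusted p = 0.00425). Abca13, a large lipid transporter of the ABC family (ENSMUSG00000004668, chr11:9191942-9684259, plus strand), was at 0.394, 0.602, 1.02 and 1.17 RPKM against 0.0343, 0.0680, 0.0334 and 0.0824 RPKM (log2 fold change 3.96, SE 0.51, adjusted p = 0.0215). Ppp1r9a, neurabin, an actin-binding scaffold of protein phosphatase 1 (ENSMUSG00000032827, chr6:4902917-5165661, plus strand), was at 0.469, 0.1845, 0.633 and 0.678 RPKM against 0.0256, 0.0497, 0.0458 and 0.0876 RPKM (log2 fold change 3.30, SE 0.54, adjusted p = 0.0498). All 3 were separated between the groups, and Ppp1r9a shares its locus and strand with 3 predicted genes.

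The other 6 genes called higher were, like Lrg1, Abca13 and Ppp1r9a, not on the lists of granule genes or neutrophil markers. Ptgfrn, a tetraspanin partner, was at 1.16 to 1.75 RPKM in tumor-bearing and 0.158 to 0.241 RPKM in healthy libraries (log2 fold change 2.95, adjusted p = 0.00309) and was past the adjusted p in each of the 20 other settings tried. Mt1, a metallothionein that binds zinc and copper, was at 2.97 to 5.74 against 0.479 to 0.769 RPKM (log2 fold change 3.00, adjusted p = 0.0354). Bst1, an ADP-ribosyl cyclase on myeloid and stromal cells that overlaps Fbxl5 on the other strand, was at 3.58 to 6.12 against 1.10 to 1.24 RPKM (2.12, adjusted p = 0.0215), and Siglece, an inhibitory receptor for sialic acids, at 9.18 to 14.2 against 2.09 to 3.82 RPKM (1.90, adjusted p = 0.0226). The phospholipid flippase Atp11a and the galactosyltransferase B4galt6 differed by 1.78 and 1.62 on the log2 scale (adjusted p = 0.0215 and 0.0412).

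Of 16 genes on a list of neutrophil granule proteins, 14 passed the filter on low counts. Of these, 3 (Ngp, Ltf and Lcn2) rose, against 0.0914% of all genes tested called higher. The median log2 fold change of the 14 was 2.17, against 0.02 over all genes tested, with 11 above 0 and 3 below. Of the 14, 6 had higher RPKM in every tumor-bearing library than in any healthy one, against 2.3% of all genes tested. Camp, the cathelicidin of secondary granules, was at 9.76, 0.376, 3.97 and 6.12 RPKM against at most 0.0120 RPKM in healthy libraries (log2 fold change 10.90, adjusted p = 0.0591). The lowest healthy library held 0 RPKM, so the size of this fold rests on very few healthy reads. The protease Elane and the peroxidase Mpo of primary granules are made at the promyelocyte stage. Both were low throughout, yet higher in every tumor-bearing library than in any healthy one, and neither passed the test. Elane was at 0.651 to 2.54 against 0 to 0.598 RPKM and Mpo at 0.129 to 1.025 against at most 0.0229 RPKM (adjusted p = 0.418 and 0.131). Mmp9, a protease of tertiary granules, was at or under 0.608 RPKM in all 8 libraries.

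Markers of mature neutrophils did not all move with these genes. Of 16 on the list, 10 were tested and 2, S100a8 and S100a9, rose, against 0.0914% of all genes tested called higher. Each of the 2 passed in 1 of the 8 fits that left out a library, and with limma-voom S100a8 passed and S100a9 did not. The median log2 fold change on the list was 1.38, with 8 members above 0 and 2 below. Their summed RPKM was 96.9 to 274.1 in tumor-bearing and 34.5 to 129.6 in healthy monocytes, and 16290 to 22280 in blood neutrophils of the tumor-bearing mice. Ly6g, which marks neutrophils, was at 0.597 to 0.957 RPKM in tumor-bearing and 1.25 to 5.93 RPKM in healthy libraries (log2 fold change -1.97, adjusted p = 0.18), and Cxcr2 was at 0.0865 to 3.87 against 0.381 to 2.28 RPKM. The stefin genes Stfa2, Stfa2l1 and Stfa3, too low to be tested, were at 0 in tumor-bearing replicate 2. In tumor-bearing replicates 1, 3 and 4 each was above the highest healthy library. Measured against the mean of the blood neutrophils of tumor-bearing mice, Ngp stood at 7.98% to 22.3% in the 4 tumor-bearing monocyte libraries, Ltf at 10.9% to 24.4%, Lcn2 at 1.04% to 7.66%, S100a8 at 0.431% to 0.949%, S100a9 at 0.103% to 1.32% and Retnlg, a resistin-like protein of mature neutrophils, at 0.00183% to 0.292%. Trem1 and Wfdc21 of the same list stood at 2.11% to 5.98% and 0.525% to 7.27%, against 0.440% to 1.19% and 0% to 0.3005% in healthy libraries. The median over the 16 markers was 0.70%, 0.0596%, 1.12% and 0.712% of the neutrophil level in tumor-bearing replicates 1 to 4 and 0.0971% to 0.286% in healthy libraries. The median over the 10 granule genes with at least 1 RPKM in those neutrophils was 20.8%, 5.42%, 12.7% and 18.45% against 0.336% to 0.583%. Among these 10, Camp, Ngp, Ltf and Lcn2 were higher without overlap, while Chil1, Mmp8, Mmp9, Olfm4, Cd177 and Cybb overlapped. Cd177 was at 13.9% to 21.2% against 14.2% to 30.6%, and Cybb at 641.3% to 799.9% against 765.3% to 1215%. Granule genes under 1 RPKM in those neutrophils were left out of the median, Elane among them at 0.0 RPKM. Mpo and Prtn3, also left out, stood at 462.6% to 3684% and 199.1% to 1903%, against at most 82.5% and 644.3% in healthy libraries. Fcnb overlapped, at 0% to 767.5% against 83.9% to 1080%. The part of neutrophil RNA in these differences was not tested beyond these values, and in bulk libraries like these a changed number of cells of one type and a changed amount of RNA per cell cannot be told apart.

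**Figure D2:**
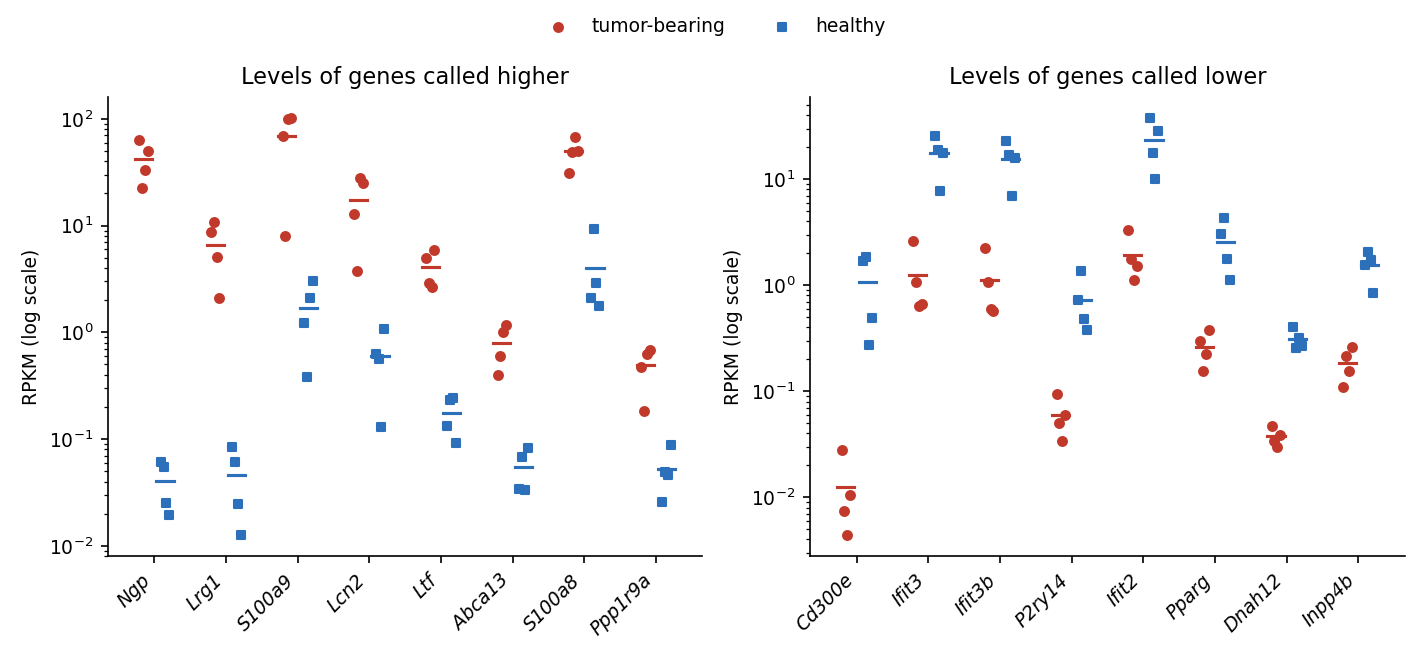
RPKM on a log scale in each of the 8 blood monocyte libraries, red circles for the 4 tumor-bearing and blue squares for the 4 healthy libraries with a line at each group's mean, for the 8 genes called higher and the 8 called lower with the largest changes. Ngp and Lrg1 sat below 0.09 RPKM in every healthy library, and Ifit2, Ifit3 and Ifit3b sat below 3.4 RPKM in every tumor-bearing one.

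Among the genes that fell most were 3 members of the Ifit family. Ifit2, an RNA-binding antiviral protein of the IFIT family (ENSMUSG00000045932, chr19:34550694-34576419, plus strand), was at 3.31, 1.77, 1.12 and 1.52 RPKM in tumor-bearing and 37.8, 17.7, 10.1 and 28.3 RPKM in healthy libraries (log2 fold change -3.52, SE 0.45, adjusted p = 0.0215). Ifit3 (ENSMUSG00000074896, chr19:34583531-34588731, plus strand) was at 2.61, 1.08, 0.632 and 0.662 against 25.6, 19.0, 7.74 and 17.6 RPKM (log2 fold change -3.73, SE 0.52, adjusted p = 0.0226). Its neighbour Ifit3b (ENSMUSG00000062488, chr19:34607970-34613401, plus strand) was at 2.26, 1.07, 0.594 and 0.573 against 23.05, 16.8, 6.92 and 15.7 RPKM (log2 fold change -3.71, SE 0.51, adjusted p = 0.0226). The groups were apart for all 3. Healthy replicate 3 was the lowest of the healthy libraries each time. Ifit3 and Ifit3b are near-identical copies whose reads the authors' counting could have split, and so are Tgtp1 and Tgtp2, so each pair is best read as 1 measurement.

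Usp18, a protease that removes Isg15 from proteins and dampens interferon signaling, was at 1.58 to 3.15 RPKM in tumor-bearing and 8.24 to 18.8 RPKM in healthy libraries (log2 fold change -2.59, adjusted p = 0.0226). Mx1, a dynamin-like antiviral GTPase, was at 2.28 to 3.74 against 7.35 to 18.04 RPKM (-2.15, adjusted p = 0.0226). Oas1b, of the oligoadenylate synthetase family and annotated as a polymorphic pseudogene, was at 1.13 to 1.27 against 3.23 to 4.58 RPKM (-1.66, adjusted p = 0.0412). The T cell-specific GTPases Tgtp2 and Tgtp1, which act on vacuoles of intracellular pathogens, differed by -2.79 and -2.76 (adjusted p = 0.0226 for each), and the guanylate-binding protein Gbp9, which overlaps Gbp8 and Gbp4, by -1.80 (adjusted p = 0.0490). Slfn1 of the Schlafen family was at 16.6 to 24.1 against 38.0 to 73.35 RPKM (adjusted p = 0.0369) and H2-T24, a class Ib histocompatibility gene, at 1.68 to 3.08 against 7.62 to 11.6 RPKM (-1.78, adjusted p = 0.0321).

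The same direction ran through the wider lists. Of 40 interferon-stimulated genes tested, 5 (Ifit2, Ifit3, Ifit3b, Usp18 and Mx1) fell, against 0.118% of all genes tested called lower. None rose, and 39 had a log2 fold change below 0, with a median of -1.53. In 28 of the 40 each tumor-bearing library was below each healthy one, which held for 5.06% of all genes tested. The members short of the test included Ifit1 (log2 fold change -2.93, adjusted p = 0.0638), Cxcl10 (-2.78, adjusted p = 0.132), Isg15 (-2.23, adjusted p = 0.225) and Irf7 (-1.59, adjusted p = 0.258). Ly6e alone had a value above 0 (0.29). Of 19 interferon-inducible GTPases, 3 (Tgtp1, Tgtp2 and Gbp9) fell, beside the same 0.118% of all genes. None rose, the median was -1.70 and 18 did not overlap. Iigp1, Gbp2b and Gbp6 were at -3.98, -2.99 and -2.11 without passing (adjusted p = 0.082, 0.0878 and 0.106). The 13 tested genes of the Ifi200 family, DNA sensors encoded together on chromosome 1, had a median of -1.01 with 11 not overlapping, and none passed the test. The largest differences in that family were -2.76 for Ifi208 and -2.69 for Ifi213. The median log2 CPM of the interferon-stimulated list relative to the healthy mean was -1.12, -1.17, -2.13 and -2.23 in tumor-bearing replicates 1 to 4 and ran from -0.59 to 0.46 in healthy libraries. The levels were lower in replicates 3 and 4, the 2 tumor-bearing libraries with little Xist and little hemoglobin RNA, and those of replicates 1 and 2 were also below every healthy library.

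The promoters of several of these genes hold a sequence that interferon-activated factors recognise. They are shown because Ifit3 and Ifit3b, and likewise Tgtp1 and Tgtp2, are pairs of near-identical copies that can be seen to share it. The core of the interferon-stimulated response element, GAAA followed by NN (any 2 bases) and a second GAAA, was searched on both strands in the 250 bases before each transcription start of RefSeq (GRCm38.p6). Capitals mark the match, and each line is 100 bases of the gene's own strand, 5′ to 3′.
Ifit3, chr19:34583345-34583444, plus strand: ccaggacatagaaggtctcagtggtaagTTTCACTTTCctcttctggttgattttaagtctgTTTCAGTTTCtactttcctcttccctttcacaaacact
Ifit3b, chr19:34607741-34607840, plus strand: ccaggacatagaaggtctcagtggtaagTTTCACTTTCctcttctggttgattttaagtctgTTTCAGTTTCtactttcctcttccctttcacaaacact
Tgtp1, chr11:48992269-48992368, minus strand: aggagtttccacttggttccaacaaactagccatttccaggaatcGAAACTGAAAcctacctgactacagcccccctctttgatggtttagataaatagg
Tgtp2, chr11:49064228-49064327, minus strand: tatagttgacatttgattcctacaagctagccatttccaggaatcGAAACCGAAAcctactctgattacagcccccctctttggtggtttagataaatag
Dpp4, chr2:62412232-62412331, minus strand: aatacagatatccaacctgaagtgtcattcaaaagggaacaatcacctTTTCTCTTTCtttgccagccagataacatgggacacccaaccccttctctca
The Ifit3 and Ifit3b stretches are the same over all 100 bases and hold the motif 2 times on the opposite strand. In Tgtp1 and Tgtp2 the match begins 77 and 70 bases before the start. Of the 18 genes called lower, 13 were in the promoter table and the 5 shown here held the motif, against 0 of 12 listed genes called higher and 936 of all 27025 genes in the table (3.46%). Both copies of each pair are counted in the 5. Ifit2, Usp18, Mx1 and Gbp9 were not among the genes with a match, but a gene without a match may be one that the promoter table does not list. The motif was present for 13 of 27 interferon-stimulated genes, 10 of 11 interferon-inducible GTPases and 9 of 12 Ifi200 genes that the table lists. A match describes the letters of the window and no binding was measured.

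**Figure D3:**
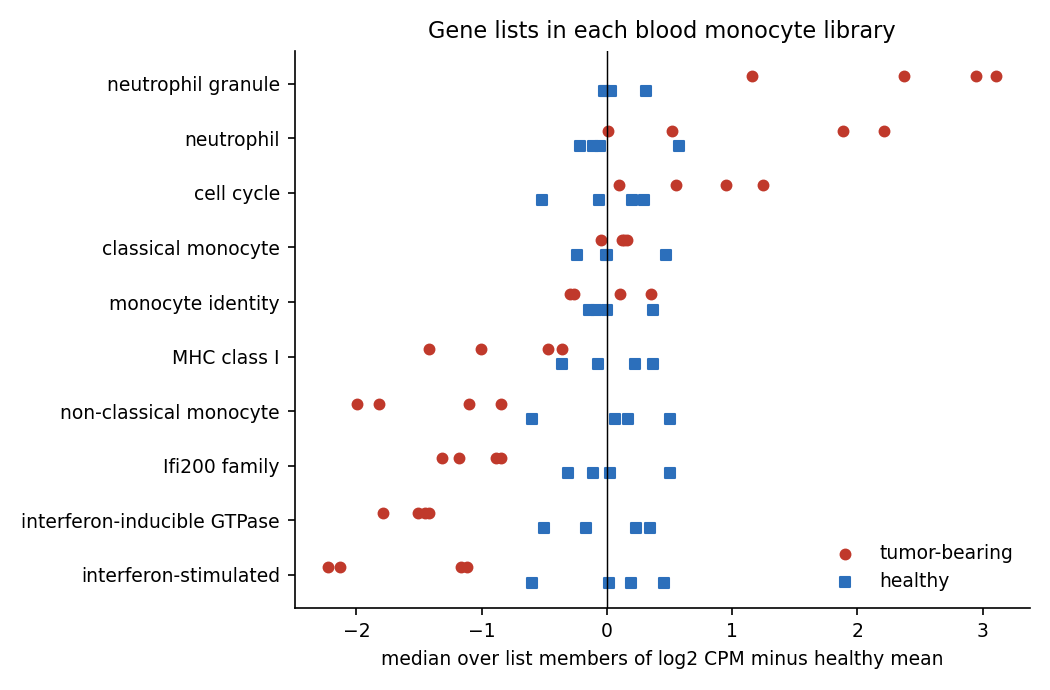
Median over the tested members of 10 gene lists of log2 CPM minus the mean of the healthy libraries, 1 point per library, red circles for tumor-bearing and blue squares for healthy mice. The 4 tumor-bearing points of the interferon-stimulated list lie at -1.12 to -2.23 and those of the granule list at 1.16 to 3.11, all outside the healthy points, while both groups overlap for classical monocyte and monocyte identity genes.

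Some genes of non-classical monocytes were also lower. Cd300e, an activating receptor of that subset (ENSMUSG00000048498, chr11:115051917-115062177, minus strand), was at 0.0277, 0.00741, 0.00438 and 0.0105 RPKM in tumor-bearing and 1.68, 1.86, 0.271 and 0.4915 RPKM in healthy libraries. No tumor-bearing library had more than 4 counts, so the log2 fold change of -6.15 (SE 0.86, adjusted p = 0.0226) rests on few reads. Pparg, a nuclear receptor that controls lipid genes (ENSMUSG00000000440, chr6:115360951-115490399, plus strand), was at 0.297, 0.154, 0.224 and 0.375 RPKM against 3.05, 4.30, 1.75 and 1.11 RPKM (log2 fold change -3.17, SE 0.51, adjusted p = 0.0458). Eno3, a glycolytic enolase listed among the markers of the subset, was at 2.05, 1.15, 1.02 and 1.16 RPKM against 7.32, 8.51, 4.07 and 5.42 RPKM (log2 fold change -2.15, SE 0.33, adjusted p = 0.0374). The groups were apart for all 3, with healthy replicates 1 and 2 above healthy replicates 3 and 4.

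Of 20 non-classical markers tested, these 3 fell, against 0.118% of all genes tested called lower. None rose, and the median was -1.62. With limma-voom none of the 3 passed. Cd300e, Pparg and Eno3 passed in 3, 2 and 1 of the 8 fits that left out a library. In 8 of the 20 the tumor-bearing libraries all lay below the healthy ones, against 5.06% of all genes tested. Treml4, at 2.57 to 6.51 against 8.86 to 26.2 RPKM, Ace, angiotensin-converting enzyme, at 5.14 to 15.7 against 23.4 to 35.5 RPKM, Spn, which encodes CD43, at 1.15 to 3.58 against 4.48 to 8.60 RPKM, and Adgre4 at 7.89 to 14.1 against 16.97 to 43.3 RPKM were of this kind, and none of the 4 passed the test (adjusted p = 0.106, 0.131, 0.106 and 0.0878). The ranges of other defining genes of the subset overlapped. Nr4a1, the factor on which these cells depend, was at 10.45 to 35.6 against 18.4 to 30.1 RPKM, Itgal at 21.9 to 74.7 against 37.3 to 49.2 RPKM and Cx3cr1, the fractalkine receptor, at 6.22 to 16.35 against 14.02 to 21.0 RPKM (log2 fold changes 0.09, 0.04 and -0.53).

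Classical markers showed no single direction. Of 19 tested, none passed, 10 had a log2 fold change above 0 and 9 below, and the median was 0.15. Ccr2 was at 108.0, 97.5, 95.1 and 89.0 RPKM in tumor-bearing and 115.7, 122.2, 74.4 and 63.4 RPKM in healthy libraries. Ly6c2, which encodes Ly6C, was at 8.73, 9.69, 5.06 and 3.77 RPKM against 31.4, 81.75, 13.01 and 21.75 RPKM, a difference of -2.36 on the log2 scale (SE 0.55, adjusted p = 0.131) without overlap, and its near-identical neighbour Ly6c1 differed by -2.31. Chil3, a chitinase-like protein of classical monocytes, was at 44.1, 62.7, 286.3 and 142.5 RPKM against 16.5, 34.15, 15.7 and 13.9 RPKM (log2 fold change 2.85, SE 0.59, adjusted p = 0.104), and the matrix genes Vcan and Fn1 differed by 1.99 and 0.95 (adjusted p = 0.125 and 0.132). The 16 monocyte identity genes had a median of 0.00 and none passed. Cd14, a co-receptor for lipopolysaccharide, was the one with the largest difference among well-expressed members, at 9.86 to 35.0 against 3.92 to 9.79 RPKM (log2 fold change 1.54, adjusted p = 0.205), followed by Csf2ra, a receptor chain for GM-CSF, at 21.8 to 149.3 against 23.6 to 33.3 RPKM (1.20, adjusted p = 0.521).

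**Figure D4:**
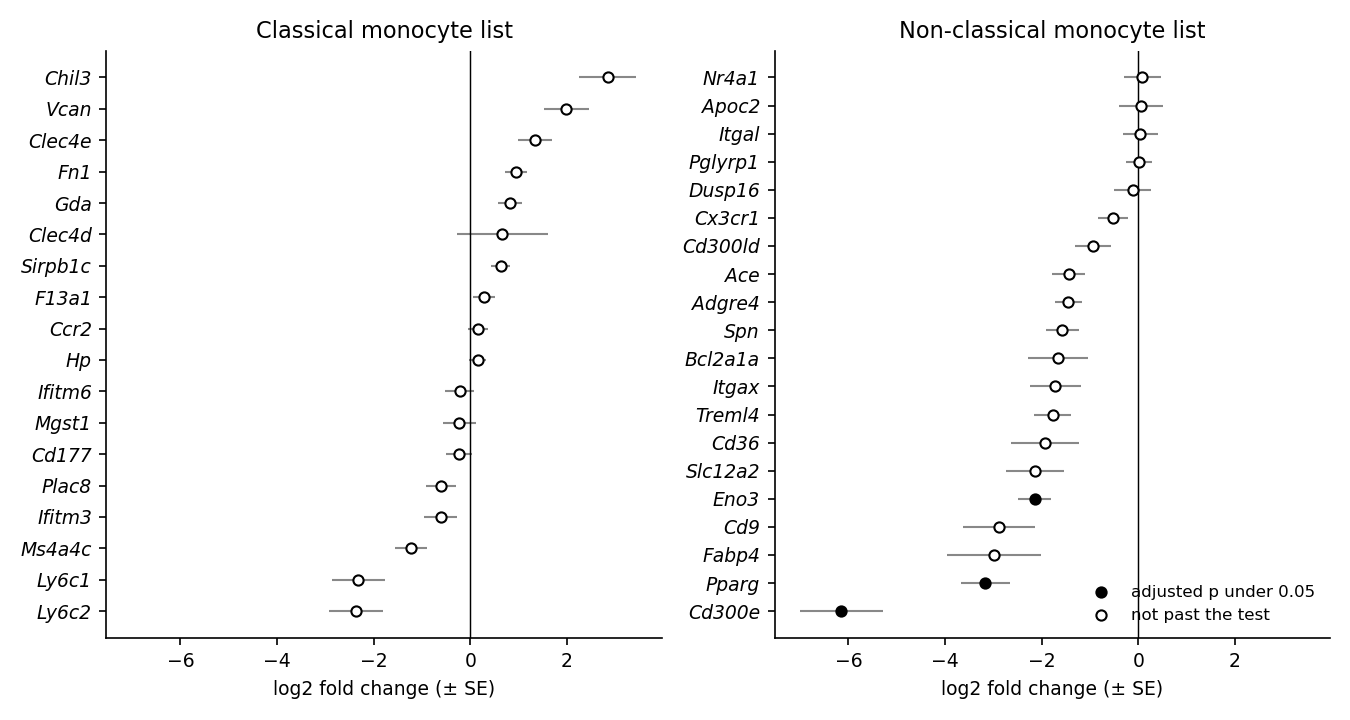
Log2 fold change of tumor-bearing over healthy mice with its SE for 18 of the 19 classical markers tested, 1 being not reported here, and for the 20 non-classical ones, filled points for an adjusted p under 0.05 and open points for the others. Filled points are Cd300e, Pparg and Eno3 on the non-classical side, and the classical list spreads from -2.36 for Ly6c2 to 2.85 for Chil3.

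The other genes called lower were P2ry14, Dnah12, Inpp4b and Dpp4. P2ry14, a receptor for UDP-glucose whose reads cannot be told from those of Med12l on the other strand (ENSMUSG00000036381, chr3:59113855-59153618, minus strand), was at 0.0933, 0.0505, 0.0341 and 0.0601 RPKM in tumor-bearing and 0.721, 1.35, 0.475 and 0.375 RPKM in healthy libraries (log2 fold change -3.53, SE 0.50, adjusted p = 0.0226). Dnah12, an axonemal dynein chain (ENSMUSG00000021879, chr14:26693274-26891703, plus strand), was at 0.0471, 0.0342, 0.0301 and 0.0390 against 0.399, 0.257, 0.3185 and 0.2675 RPKM (log2 fold change -2.93, SE 0.37, adjusted p = 0.0215). Inpp4b, a phosphatase of phosphoinositides (ENSMUSG00000037940, chr8:81342556-82127914, plus strand), was at 0.110, 0.215, 0.156 and 0.264 against 1.53, 2.03, 1.72 and 0.849 RPKM (log2 fold change -2.92, SE 0.39, adjusted p = 0.0226). Dpp4, a membrane protease that cleaves chemokines, was at 1.20 to 1.98 against 4.45 to 9.56 RPKM (log2 fold change -1.92, adjusted p = 0.0226). All 4 were lower in each tumor-bearing library than in any healthy one.

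Antigen presentation genes of class I were all on the lower side. All 18 class I genes tested had a log2 fold change below 0, with a median of -0.58, and H2-T24 alone passed. B2m, the common light chain, was at 718.7 to 1169 RPKM in tumor-bearing and 1187 to 1968 RPKM in healthy libraries (log2 fold change -0.68, adjusted p = 0.189). None of 11 class II genes passed (median -0.53). Class II transcripts varied widely within both groups. H2-Aa was at 16.55, 36.7, 0.709 and 2.82 RPKM in tumor-bearing and 61.6, 89.4, 46.0 and 1.52 RPKM in healthy libraries, and H2-Eb1 differed by -2.72 (adjusted p = 0.514), with the low values in the same 3 libraries that had little hemoglobin RNA.

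The study asked how myeloid cells suppress T cells, and of the 12 genes on that list that were tested none passed. Arg1, arginase 1, was at 0.0724 to 0.776 RPKM in tumor-bearing and 0.0681 to 0.331 RPKM in healthy libraries, and Nos2, inducible nitric oxide synthase, did not exceed 0.0571 RPKM in any library and was filtered. Arg2 was at 0.938, 5.41, 1.60 and 1.77 RPKM against 0.7505, 0.00915, 0.396 and 0.407 RPKM, without overlap (log2 fold change 2.78, SE 0.86, adjusted p = 0.283). Ptgs2, cyclooxygenase 2, was at 2.32, 2.75, 0.323 and 1.85 RPKM against 0.0941, 0.0863, 0.291 and 0.895 RPKM (2.44, SE 0.85, adjusted p = 0.366). Cd274, which encodes PD-L1, was at 1.00 to 1.21 against 2.56 to 5.21 RPKM, without overlap (log2 fold change -1.68, SE 0.30, adjusted p = 0.0638). Tgfb1 was at 19.8, 22.4, 7.44 and 7.76 RPKM against 14.55, 7.41, 12.5 and 11.5 RPKM (0.43, adjusted p = 0.76), Tgfb2 at or under 0.0945 RPKM and Tgfb3, which was filtered, at or under 0.0885 RPKM in all libraries. The ectoenzymes Entpd1 and Nt5e were at 1.77 to 2.64 against 1.64 to 5.09 RPKM and at 0.0251 to 0.0948 against 0.0246 to 0.316 RPKM, and Il10 ran from 0.0340 to 1.46 against 0.000166 to 3.51 RPKM.

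Among signaling lists no member passed except Mt1 and Lcn2 on that of iron and oxidative stress (16 tested, median 0.18). Inflammatory cytokines (11 tested, median -0.43) were led by the death ligand Tnfsf10 (log2 fold change -2.96, adjusted p = 0.059) and the growth factor Csf1 (0.0983 to 0.244 against 0.443 to 0.9045 RPKM, adjusted p = 0.106), and chemokines (13 tested, median -0.16) by the platelet factor Pf4 (-2.95, adjusted p = 0.503) and the interferon-induced Cxcl9 (-2.86, adjusted p = 0.201). Of chemokine receptors (10 tested, median 0.14), Ccr1 was at 2.41 to 5.38 against 0.974 to 1.88 RPKM (1.75, adjusted p = 0.0969). Immediate early genes had a median of 0.96 over 23 tested, with 17 above 0, and their summed RPKM was 192.4 to 603.9 against 249.3 to 317.1. Their examples Nr4a2 and Ier3 differed by 2.16 and 2.03 (adjusted p = 0.449 and 0.24), and Ier3 stood at 13.5 RPKM in tumor-bearing replicate 1 against 3.37 to 3.60 in the other 3. Cell cycle genes had a median of 0.43 over 21 tested, with Mki67, the proliferation antigen, at 2.20 to 4.50 against 0.897 to 1.79 RPKM (1.37, adjusted p = 0.131) and Top2a at 1.46 (adjusted p = 0.336). Medians were -0.35 over 18 genes of adhesion and homing (Itgb3 at -2.07, adjusted p = 0.0638, and Itgax at -1.72, adjusted p = 0.289), 0.07 over 16 Toll-like receptor genes (Tlr3 at -1.51, adjusted p = 0.314), 0.29 over 19 Fc receptors and C-type lectins (Clec4e at 1.34, adjusted p = 0.178), -0.42 over 10 SLAM receptors (Slamf7 at -1.46, adjusted p = 0.327, and Slamf8 at -1.05, adjusted p = 0.48), 0.02 over 17 genes of the TGF-beta response (Ltbp1 at -5.24, adjusted p = 0.0773, and Thbs1 at 0.88, adjusted p = 0.52) and 0.26 over 23 of glycolysis and hypoxia (Hif1a at 1.01, adjusted p = 0.208, and Pfkl at 0.84, adjusted p = 0.611).

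None of the markers of other blood cells passed the test, and most of these lists varied widely between libraries of a group. Platelet genes were below 0 in 18 of 18 (median -1.98) with a summed RPKM of 5.18 to 45.4 in tumor-bearing and 8.39 to 149.2 in healthy libraries, where Ppbp was at 21.4, 33.6, 0.559 and 4.34 RPKM against 100.3, 92.6, 106.8 and 1.5 RPKM. Alox12 and Pf4 of that list differed by -2.97 and -2.95 (adjusted p = 0.324 and 0.503). B cell genes (8 tested, median -1.38) summed to 18.2 to 78.7 against 52.15 to 82.15 RPKM, with Igkc at -2.04 and Ighm at -0.10. T cell genes (7 tested, median -0.47) summed to at most 6.10 RPKM and NK cell genes (10 tested, median -1.88) to 0.162 to 37.6 against 2.87 to 60.7 RPKM, with Klrk1 and Klrd1 at -2.75 and -2.63. Dendritic cell genes (12 tested, median -0.64) summed to 7.58 to 26.1 against 26.03 to 34.4 RPKM, Cd209a being at 0.0426 to 0.473 against 0.538 to 6.62 RPKM (-3.67, adjusted p = 0.131) and Bst2 at -1.13. Basophil and eosinophil genes (4 tested, median -1.90) summed to 1.45 to 2.03 against 3.48 to 30.2 RPKM, so that every tumor-bearing library lay below every healthy one, and the eotaxin receptor Ccr3 was at 21.6 RPKM in replicate 2 and at most 0.338 RPKM elsewhere. Among macrophage genes (13 tested, median -0.34) Mertk was at -1.92, and among erythroid genes (14 tested, median 0.05) Alas2 was at 1.15 and Hbb-bt at -0.41. The part of these cells in the differences above was not tested.

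The same contrast in blood neutrophils used 8 other libraries. Of the 13360 genes tested there, 3.59% were higher and 2.93% lower in tumor-bearing mice at an adjusted p under 0.05. Of the 14 genes called higher in monocytes, 13 were tested in neutrophils and 6 rose there too, Ngp, Ltf, Lcn2, Abca13, Atp11a and B4galt6, while Ppp1r9a fell (log2 fold change -2.02, adjusted p = 0.0264). Of the 18 genes called lower, 14 were tested in neutrophils and 8 fell, Ifit2, Ifit3, Ifit3b, Usp18, Tgtp1, Tgtp2, Gbp9 and Oas1b, and none rose. The estimates for these 8 genes were larger in neutrophils. Ifit2 differed by -7.34 there against -3.52 in monocytes, and the median of the interferon-stimulated list was -2.51 over 38 genes, with 24 falling. The difference between the cell types was itself tested, in a model of all 16 blood libraries in which 0.969% of 16817 genes passed. By the titles some monocyte and neutrophil libraries came from the same mice, and this model treats all 16 as independent. For Ifit2, Ifit3, Ifit3b, Usp18, Tgtp1, Tgtp2, Gbp9 and Oas1b it did not pass, with 3.80 (SE 1.06) for Ifit2 as the largest, so neither a different nor an equal size was shown.

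The difference did pass for 7 of the 32 genes. Ngp was 4.92 (SE 0.62) higher on the log2 scale in the monocyte contrast than in the neutrophil contrast (adjusted p = 0.00164), where it ran from 3.31 to 11.99 RPKM in healthy and from 134.7 to 456.3 RPKM in tumor-bearing mice. Lrg1 was 5.18 (SE 0.93) higher (adjusted p = 0.0168) and had a neutrophil difference of 2.04 (adjusted p = 0.0569). Ngp and Lrg1 had at most 5 and 8 counts in any healthy monocyte library, so both sizes rest on very few reads. In RPKM, Ngp rose to a mean of 42.2 in monocytes and 282.8 in neutrophils. Ptgfrn, Ppp1r9a and Siglece were 3.92 (SE 0.53), 5.28 (SE 0.73) and 1.54 (SE 0.35) higher (adjusted p = 0.00276, 0.00289 and 0.049). Cd300e was 8.48 (SE 1.53) lower and Pparg 7.19 (SE 1.65) lower (adjusted p = 0.0176 and 0.049), both near the detection limit in neutrophils, at or under 0.429 and 0.313 RPKM.

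**Figure D5:**
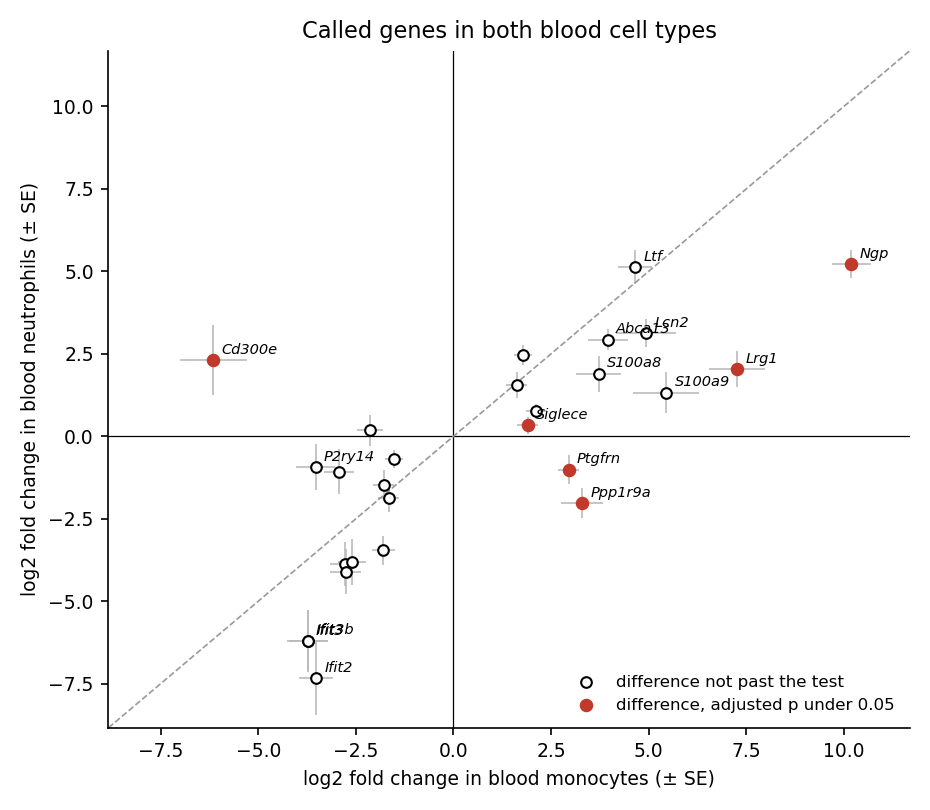
Log2 fold change of tumor-bearing over healthy mice in blood monocytes (horizontal) and blood neutrophils (vertical), with SE bars, for the 27 called genes tested in both, and a dashed line of equal change. Red points differ between the cell types at an adjusted p under 0.05, among them Ptgfrn and Ppp1r9a below 0 in neutrophils, and the Ifit genes lie in the lower left at about -6 to -7 in neutrophils.

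The colon cells of the series carry the same difference in strain and transgene between tumor and healthy mice, so the called genes were looked up there as a description. Among epithelial cells, 4 of the 14 higher genes, Lcn2, Ltf, Abca13 and Atp11a, were higher in every tumor library than in any healthy one, as were 16.9% of all genes tested in monocytes, and 0 of the 18 lower genes were lower without overlap (1.21% of all genes). Among stromal cells, 4 of the 14, Lcn2, Ltf, Abca13 and Siglece, were higher (3.38% of all genes) and 3 of the 18, Mx1, Pparg and P2ry14, were lower (14.4%). The opposite direction without overlap was seen for Inpp4b, Usp18, Eno3 and Gbp9, which were higher in tumor epithelial cells, and for Ptgfrn, which was lower in tumor stromal cells. Slfn5 was also lower without overlap in tumor epithelial cells.

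The 32 genes lay on 13 chromosomes. Chromosome 11 held 6 of them, 0.487% of the 1231 genes tested on it, and chromosome 19 held 3 of 473, or 0.634%, which are the neighbouring Ifit genes. Within 1 Mb of each other lay Ifit2, Ifit3 and Ifit3b, Tgtp1 and Tgtp2, S100a8 and S100a9, and Ltf and Ngp, the last pair 599524 bases apart. Of 16 genes known to vary between laboratory mouse strains, Mx1 alone passed (median log2 fold change -0.23), and Gbp2b was at 0.204 to 0.450 RPKM in tumor-bearing and 0.8335 to 7.08 RPKM in healthy libraries. Nnt, of which part is deleted in one C57Bl6 substrain, was at 0.715 to 1.55 against 0.652 to 1.62 RPKM (log2 fold change 0.07). The part of strain in any of these differences was not tested and cannot be told apart from that of the tumor.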

How the data were processed

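Blood monocyte RNA of 4 tumor-bearing and 4 healthy mouse samples was amplified to double-stranded cDNA, which does not mark strand, and sequenced. The authors mapped reads to mm10 with Bowtie2 in HTSstation and deposited expected counts, without normalization, and RPKM values for 45706 genes. The annotation release and the treatment of reads with several matches are not given in the sources used here. GENCODE M21 supplied names and positions for 45143 genes. Expected counts were rounded and tested in edgeR 4.0.16 (R 4.3.3) by the robust quasi-likelihood test after filterByExpr and TMM, with Benjamini-Hochberg adjustment over all genes tested; every adjusted p in the report is from edgeR. SE is the log2 fold change over the root of F. RPKM values are as the authors deposited them. Blood neutrophils had a fit of their own (13360 genes), as did the interaction (16817 genes). The code was tested on simulated data. Alternatives were limma-voom (limma 3.58.1, the study's tool), DESeq2 1.42.0, RLE factors, other filters on low counts, fits of 16 and 40 libraries, limma on log2 RPKM plus 1 or 0.1, a replicate block, omission of mitochondrial genes, Xist as a covariate and leaving out each library.

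All called genes are named, and levels in each library are given for the 8 of each direction with the largest change, a mean log2 CPM of 1 or more and separate ranges. Of each list, the members past the test are named or otherwise the 2 that differed most at a mean log2 CPM of 3 or more, with marker and T cell suppression genes set by name. Values of 3 list members are not reported here. Any other gene was picked with its values in view. The genes and lists were chosen with earlier results of these data known. By their titles the libraries come from different mice, 2 mice in each of 3 healthy libraries. The mean squared difference of pairs within a group was 21.5 to 190.5 times that of counting error, so none was a repeat.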

Additional observations from a re-analysis of the deposited data

Results flagged for a closer look

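For 93 of the genes named in the text, 186 groups of 4 libraries were examined for a library that stands far from the other 3. Normally distributed values would give this in about 1 group in 20, which RPKM values need not follow, and 19 values were found. Healthy replicate 2 held 7 of them. In that library Ccr3 was at 21.6 RPKM (next 0.338), Il10 at 3.51 (next 0.271), Mertk at 5.70 (next 0.479), Chil3 at 34.15 (next 16.5), S100a8 at 9.37 (next 2.88), Ier3 at 3.02 (next 1.12) and Clec4e at 0.8655 (next 1.84). Tumor-bearing replicate 1 was the highest of its group for Ier3 at 13.5 RPKM, Eno3 at 2.05, Il10 at 1.46, Itgb3 at 1.26 and Ltbp1 at 0.0394. Tumor-bearing replicate 2 was apart for Igkc at 12.8 RPKM and Top2a at 0.145, and tumor-bearing replicate 3 for the NK cell genes Klrk1 at 0.769 and Klrd1 at 1.75. Healthy replicate 3 was apart for Cd79a at 0.637 RPKM, and healthy replicate 4 for Ppbp at 1.5 and Igkc at 0.0.

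The change between tumor-bearing and healthy mice differed between monocytes and neutrophils of blood, by the edgeR interaction over 16 libraries, for 7 called genes. The log2 fold change in monocytes minus that in neutrophils was -8.48 for Cd300e, -7.19 for Pparg, 1.54 for Siglece, 3.92 for Ptgfrn, 5.28 for Ppp1r9a, 5.18 for Lrg1 and 4.92 for Ngp. Those of Ngp and Lrg1 rest on at most 5 and 8 counts in healthy monocyte libraries.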

How the results depend on the processing

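The 32 genes called (14 higher, 18 lower) kept their direction in every one of the 20 other fits in which they were tested, but the count did not hold. It was 17 (9 and 8) with limma-voom, 261 (113 and 148) with DESeq2, which called all 32, 71 (24 and 47) with at least 10 counts in every library, 70 (42 and 28) in the fit of 16 blood libraries, 18 (14 and 4) in that of all 40 and 7 (5 and 2) with limma on log2(RPKM + 1); the cause was not tested. The fits with RLE factors, no filter, log2(RPKM + 0.1), no mitochondrial genes, Xist as a covariate and no fold threshold stayed within 1.5 times, at 26 to 33 genes. Leaving out each library gave 4 to 44 genes, 4 to 11 of them higher and 0 to 35 lower. With the replicate block 14 genes were called (5 higher, 9 lower), 9 of them among the 32. Same-numbered libraries come from different mice, and the correlations of their deviations were 0.08, 0.14, 0.09 and 0.25, with replicate 3 of the tumor-bearing mice closer to healthy replicate 4, so the numbers were not taken to pair samples. Of the 33 genes past the adjusted p, Ptgfrn passed in all 20 fits and Ngp in all 19 in which it was tested, while Mt1 and Gbp9 passed in 6. Over all fits, 159 of 264 values with a library left out and 114 of 393 others were no longer past the threshold. No NK cell gene was left with at least 10 counts in every library, so that list has no value there. The counts per library, at 11737907 or more, did not limit the common genes, but genes such as Cd300e with at most 4 counts in a group are poorly measured.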
